A study of Mus musculus with 12 samples.

Results

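The cytoplasmic ribosomal protein genes were described in mouse totipotent potential stem cells (TPS cells) and extended pluripotent stem cells (EPS cells). A gene was included if its symbol begins with Rpl, Rps or Rplp followed by a digit, if GENCODE M21 annotates it as protein coding, and if its mean over the 12 libraries was at least 100 counts. Pseudogene symbols and the Rps6k kinases were left out. Of 85 genes with such a symbol among the 55401 genes in the files, 82 reached that mean and are called members here. The members were thus selected on their mean count over all libraries, which does not use the difference between the cell types, and that mean is given only as a description. The members just inside the limit were Rps27rt with a mean of 110.7 counts, Rps10 with 119.8 and Rpl39l with 191.7. Just outside it were Rpl3l with 16.8, Rpl36al with 15.5 and Rpl24 with 7.67. For 2 members the limit was reached by a single group. Rpl39l had a mean of 11.3 counts in the EPS libraries and Rps27rt a mean of 80.3 in the TPS libraries, so each passed through the group in which it was higher. The direction of these 2 genes is thus tied to how they were selected. Their tests are given below only as a description.

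The study cultured 3 TPS lines and 3 EPS lines on feeder cells and sequenced each line as 2 technical replicates, with polyadenylated RNA captured on oligo(dT) beads. According to the labels, TPS cells were kept in VCED medium and EPS cells in LCDM medium. The methods name the TPS condition CPEC, in which CD1530 activates RARγ, VPA inhibits histone deacetylases, EPZ004777 inhibits DOT1L and a further compound inhibits GSK3, and the feeders were inactivated mouse embryonic fibroblasts. No genotype, sex or passage is given for the sequenced lines, and the sources used here do not say whether a TPS line came from EPS cells or from 2-cell embryos. Counts of both technical replicates of a line were summed, and the line was the replicate. The labels do not say whether the lines of a group were derived independently, so p-values measure the spread between these lines.

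Ribosomal proteins are the protein part of the cytoplasmic ribosome. Those of the large subunit (Rpl and Rplp) surround the peptidyl transferase centre and the exit tunnel, and those of the small subunit (Rps) surround the site where mRNA is decoded. Cells make them in nearly equal amounts, and their mRNAs share a short run of pyrimidines at the 5′ end, the TOP motif, through which mTOR and LARP1 control their translation. Several family members have a paralog of restricted expression, among them the autosomal copies Rpl10l and Rpl39l, known from the testis, where they stand in for the X-linked Rpl10 and Rpl39.

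Library totals ranged from 13676051 to 21821707 counts, and 17468 genes passed edgeR's filter on low counts and were tested, all 82 members among them. All 8 totipotency markers checked, such as Zscan4c and Zfp352, were higher in TPS lines, and 4 of 8 pluripotency markers, such as Klf4, were lower, with edgeR adjusted p-values under 0.05. A list of 16 fibroblast markers, which are also expressed by feeder cells, had 9 genes higher in TPS lines and 0 lower in edgeR, and 0 were lower in DESeq2, in limma-voom or at an unadjusted p under 0.05 in edgeR. Of all genes tested in edgeR, 14.4% passed as higher. The share that passed as lower was 7.34% in edgeR and 7.13% in limma-voom, both over 17468 genes. In DESeq2 it was 5.08% of all 32608 genes with a count, so it is not on the same base. In edgeR 15.2% had an unadjusted p under 0.05 in the lower direction. The summed level of the fibroblast markers ranged from 5674 to 10253 CPM in TPS lines and from 2678 to 4636 CPM in EPS lines, and none of the 16 was at 0. CPM are counts of a gene scaled to 1000000 counts of the library after TMM scaling. In bulk RNA, fewer cells of a type and less RNA per cell cannot be told apart, and the part of feeder RNA in the results below was not tested.

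Ribosomal protein mRNAs took a smaller share of the TPS libraries. The 82 members held 6.68%, 6.82% and 6.99% of the counts in TPS lines 1, 2 and 3, and 10.5%, 7.92% and 7.75% in EPS lines 1, 2 and 3. The groups did not overlap, and EPS line 1 stood well above the other EPS lines. The mean was 6.83% ± 0.159 (SD, n = 3) in TPS lines and 8.72% ± 1.53 (SD, n = 3) in EPS lines, a difference of -1.89 percentage points (TPS minus EPS), or -1.0 without EPS line 1. Technical replicates of a line differed by 0.104 to 0.51 percentage points.

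**Figure D1:**
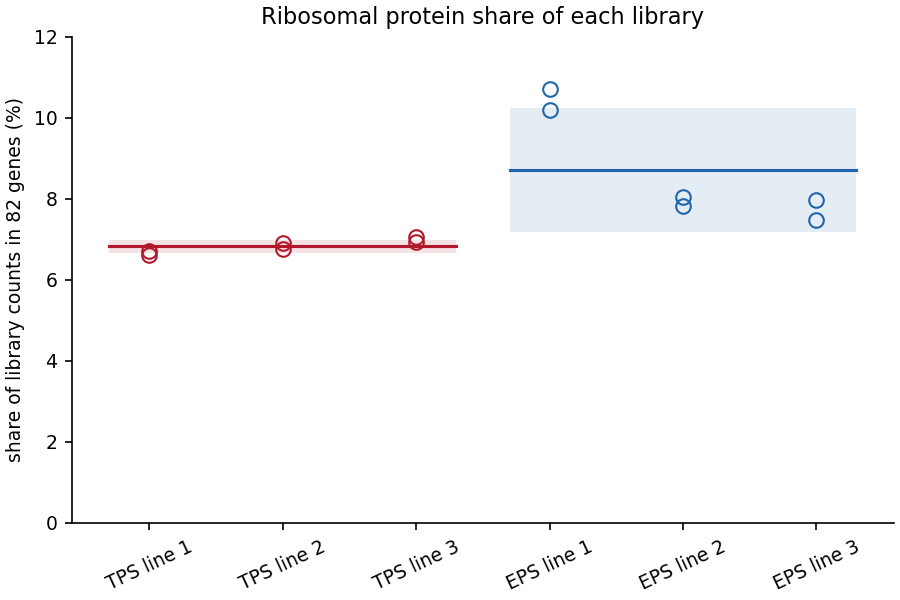
Share of each library's counts that fell on the 82 ribosomal protein genes, in percent, for the 2 technical replicates of each line (circles), with the mean of the 3 lines of each group (line) and 1 SD (band). The 6 TPS libraries sit between 6.62% and 7.05%, and the EPS libraries between 7.47% and 10.7%, with both libraries of EPS line 1 at the top.

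The log2 fold change of TPS over EPS lines was negative for 78 of 82 members, with a median of -0.49 and quartiles of -0.56 and -0.39, against a median of -0.0038 over all tested genes. At the median member, EPS lines had 1.41 times the level of TPS lines. For 65 members (79.3%) every TPS line was below every EPS line, which held for 19.1% of all tested genes. The opposite order held for 2 members, and for 23.6% of all tested genes. By edgeR's quasi-likelihood test, 13 members (15.9%) passed as lower in TPS lines, against 7.34% of all tested genes, and 2 passed as higher, against 14.4%. The lower calls include Rps27rt and the higher calls Rpl39l, each of which met the count limit only through the group in which it was higher. Among the 2040 protein-coding genes outside the family with at least 100 CPM, 15.2% passed as lower, 34% had every TPS line below every EPS line, and the median log2 fold change was -0.19. The share of members called is therefore close to that of other abundant genes, while the share of members with separate groups is above theirs (84.9% of the 73 members with at least 100 CPM). An unadjusted p under 0.05 was reached by 60 members in the lower direction, and by 15.2% of all tested genes.

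The lines of a group differed in how tightly they held to this pattern. Members varied between TPS lines with a median coefficient of variation of 5.31%, and between EPS lines with 21.6%, or 4.78% over EPS lines 2 and 3 alone. EPS line 1 had the highest level of all 6 lines for 75 members. Relative to the geometric mean of the EPS lines, the median member stood at 1.25 in EPS line 1, 0.898 in EPS line 2, 0.885 in EPS line 3, and between 0.716 and 0.739 in the TPS lines. EPS line 1 also had the lowest summed fibroblast markers, 2678 CPM, and the part of that difference in its ribosomal protein level was not tested. Without EPS line 1 the median log2 fold change was -0.33 and 7 members passed as lower, against 4.46% of all tested genes. The count of members called lower depended on the TPS lines as well: it was 1 without TPS line 1 and 0 without TPS line 2 or TPS line 3, when 35 and 37 members had an unadjusted p under 0.05 in edgeR's test, the only tool run on those subsets, while the median stayed between -0.51 and -0.48. Of all tested genes, 3.39%, 4.29% and 2.74% passed as lower without TPS lines 1, 2 and 3.

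**Figure D2:**
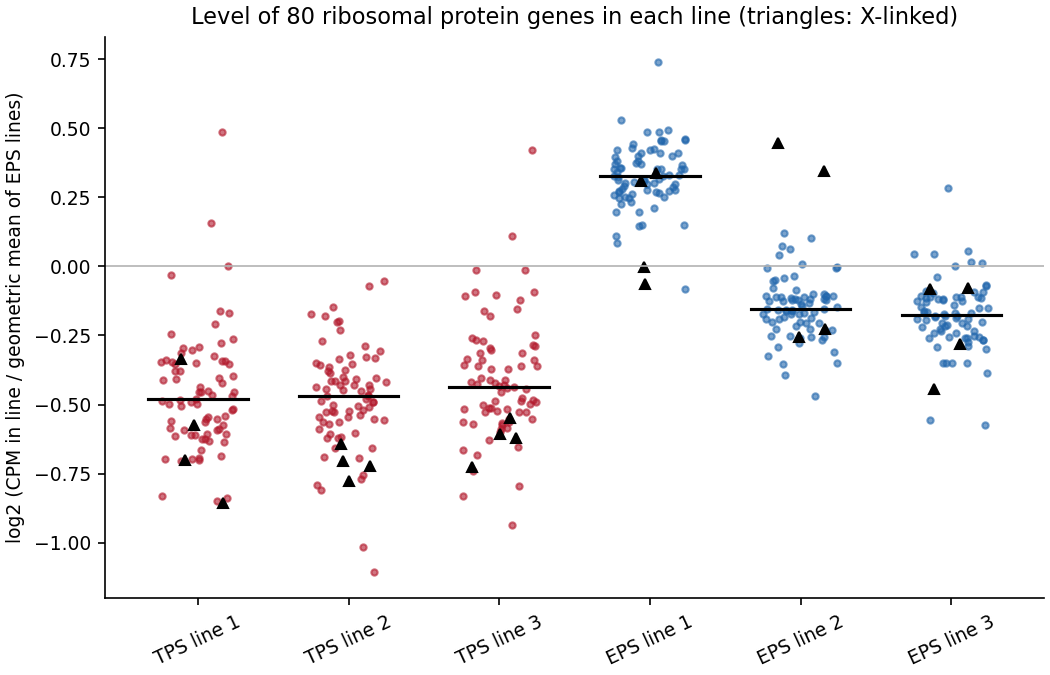
Level of 80 members (Rpl10l and Rpl39l left out) in each line, as log2 of CPM over the geometric mean of the 3 EPS lines; each point is a gene, triangles are the 4 X-linked members and bars are medians over the 82 members. The medians of TPS lines 1, 2 and 3 lie at -0.48, -0.47 and -0.44, below EPS line 2 at -0.15, EPS line 3 at -0.18 and EPS line 1 at 0.33.

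The medians of both subunits were close to each other. Without paralogs, the median log2 fold change was -0.49 for the 45 genes of the large subunit, with 9 called lower (20%) and 38 whose groups did not overlap (84.4%). The 30 genes of the small subunit had a median of -0.53, with 3 called lower (10%) and 25 whose groups did not overlap (83.3%). Over all tested genes these shares were 7.34% and 19.1%, so the share of the small subunit called lower is near the background. No gene of either set was called higher. Across these 75 genes the fold change had a Spearman rho of -0.233 with the mean CPM and 0.00312 with the length of the mature transcript, as a description over genes that share the same 6 lines.

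The members of the large subunit that passed as lower were Rpl4, Rpl5, Rpl10, Rpl12, Rpl14, Rpl22, Rpl23, Rpl34 and Rpl39. Rpl22, an RNA-binding protein of the large subunit that is dispensable for most translation, had 381.1, 384.5 and 353.5 CPM in TPS lines 1, 2 and 3 and 728.2, 545.2 and 520.1 CPM in EPS lines 1, 2 and 3. Every TPS line was below every EPS line, and its log2 fold change of -0.68 (SE 0.159) had the lowest edgeR adjusted p among the members called lower, 0.0226. Rpl12, a protein at the base of the stalk, had 1203, 1182 and 1234 CPM in TPS lines and 2467, 1655 and 1699 CPM in EPS lines, a log2 fold change of -0.69 (SE 0.179, adjusted p = 0.0326). The TPS lines lay close together, and EPS line 1 was far above the other EPS lines. Rpl14 had 976.8, 885.8 and 881.1 CPM in TPS lines and 1718, 1168 and 1360 CPM in EPS lines, a log2 fold change of -0.63 (SE 0.167, adjusted p = 0.034).

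Rpl5 binds 5S rRNA together with Rpl11, and the pair can hold back MDM2. Rpl5 had 1141, 1137 and 1156 CPM in TPS lines and 2185, 1485 and 1541 CPM in EPS lines, and it passed as lower with a log2 fold change of -0.60 (SE 0.173, adjusted p = 0.0442). Its partner Rpl11 had 646.4, 807.7 and 815.1 CPM in TPS lines and 1226, 971.9 and 963.6 CPM in EPS lines, and its log2 fold change of -0.48 (SE 0.16) did not pass the threshold (adjusted p = 0.0683). The groups did not overlap for either gene. Rpl4, which lines the exit tunnel, had 2127, 2203 and 2140 CPM in TPS lines and 2831 to 3788 CPM in EPS lines (log2 fold change -0.55, SE 0.154, adjusted p = 0.0401). Rpl23 had 693.1 to 781.7 CPM in TPS and 936.7 to 1276 CPM in EPS lines (log2 fold change -0.54, SE 0.156, adjusted p = 0.0446). Rpl34 was at 490.8 to 538.0 CPM in TPS and 621.1 to 818.4 CPM in EPS lines (log2 fold change -0.50, SE 0.141, adjusted p = 0.0424). For all 3 genes each TPS line was below each EPS line.

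The stalk proteins Rplp0, Rplp1 and Rplp2 recruit the elongation factors to the ribosome. Rplp1 was the member with the highest level per length, 4270 CPM per kb of mature transcript over the 6 lines. It had 1765, 1767 and 1805 CPM in TPS lines and 3119, 2171 and 2157 CPM in EPS lines. Rplp0 had 2687 to 3239 CPM in TPS and 3644 to 4261 CPM in EPS lines, and Rplp2 had 747.1 to 854.3 CPM in TPS and 980.3 to 1460.2 CPM in EPS lines. The groups did not overlap for any of the 3, which all had an unadjusted p under 0.05, and 0 passed the threshold in edgeR, DESeq2 or limma-voom. Over all tested genes, 19.1% had every TPS line below every EPS line, 15.2% had an unadjusted p under 0.05 in that direction and 7.34% passed as lower. In edgeR the log2 fold changes were -0.48, -0.38 and -0.51 for Rplp1, Rplp0 and Rplp2, with adjusted p-values of 0.0861, 0.0948 and 0.0766. After Rplp1, the highest levels per length were those of Rps2 (3302 CPM per kb), Rplp0 (2515), Rps14 (2468) and Rpl8 (2392).

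In the small subunit Rps4x, Rps27 and Rps27rt were among the members that passed as lower. Rps27, a zinc-binding protein, had 450.8, 339.8 and 359.3 CPM in TPS lines and 920.6, 496.9 and 709.3 CPM in EPS lines, a log2 fold change of -0.89 (SE 0.234, adjusted p = 0.0337). The lowest EPS line exceeded the highest TPS line. Rps6, the phosphorylation target of the S6 kinases, had 1506, 1432 and 1441 CPM in TPS lines and 2710, 1853 and 1882 CPM in EPS lines, and Rps19, the gene first linked to Diamond-Blackfan anaemia, had 680.5, 720.3 and 717.0 CPM in TPS lines and 1336, 857.7 and 886.7 CPM in EPS lines. Neither passed, with log2 fold changes of -0.56 for Rps6 (adjusted p = 0.0581) and -0.54 for Rps19 (adjusted p = 0.0787), although the groups did not overlap. Rps14 had the largest negative fold change that did not pass (-0.90, SE 0.301, adjusted p = 0.0684). EPS line 1 had 3337 CPM of Rps14, EPS lines 2 and 3 had 1567 and 1529 CPM, and the TPS lines had 1109 to 1184 CPM. Rps2 had 2583, 2465 and 3410 CPM in TPS lines and 6070, 4324 and 2823 CPM in EPS lines, and here the groups overlapped (log2 fold change -0.64, SE 0.279, adjusted p = 0.137).

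Of the 4 X-linked members, Rpl10, Rpl39 and Rps4x passed as lower. Rpl10, which closes the peptidyl transferase centre late in assembly, had 1122, 1170 and 1246 CPM in TPS lines and 1746, 2319 and 1501 CPM in EPS lines (log2 fold change -0.65, SE 0.179, adjusted p = 0.0379). Rpl39, a small protein of the exit tunnel, had 300.8, 318.2 and 329.3 CPM in TPS lines and 544.0, 742.0 and 400.2 CPM in EPS lines (log2 fold change -0.83, SE 0.218, adjusted p = 0.033). For both genes the highest EPS line was line 2 and not line 1, an order that 2 further members had, Rpl29 and Rps10. Rps4x had 1175, 1073 and 1147 CPM in TPS lines and 2167, 1494 and 1650 CPM in EPS lines (log2 fold change -0.65, SE 0.166, adjusted p = 0.031). Rpl36a had 375.2, 287.2 and 308.1 CPM in TPS lines and 598.2, 396.4 and 448.2 CPM in EPS lines, and did not pass (log2 fold change -0.57, SE 0.189, adjusted p = 0.0659). For Rps4x and Rpl36a EPS line 1 was the highest. Of the 679 tested genes on the X chromosome, 8.25% passed as lower, 23.9% passed as higher, and EPS line 2 was the highest EPS line for 48.7%, against 30.5% of autosomal genes.

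The autosomal paralogs of Rpl10 and Rpl39 went the other way, and they were the only members called higher. Rpl10l on chromosome 12 had 89.2, 76.1 and 48.8 CPM in TPS lines 1, 2 and 3 and 17.2, 7.51 and 9.51 CPM in EPS lines. The lowest TPS line was above the highest EPS line, with a log2 fold change of 2.65 (SE 0.362, adjusted p = 0.00419), a 6.26-fold difference. Rpl39l on chromosome 16 had 30.6, 19.5 and 8.2 CPM in TPS lines and 0.914, 0.265 and 0.882 CPM in EPS lines. These are 1223, 751 and 258 counts against 28, 9 and 31 counts, with a log2 fold change of 4.82 (SE 0.646, adjusted p = 0.00395). Rpl39l met the count limit only through the TPS libraries, where it is higher, so its test here and in the alternative fits is only a description. TPS line 1 was the highest and TPS line 3 the lowest for both paralogs. Both calls held in all 19 alternative fits, with adjusted p-values of at most 0.0169, and the log2 fold change of Rpl10l ranged from 2.40 to 3.04 and that of Rpl39l from 4.33 to 5.43.

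Set against their X-linked relatives, the paralogs remained the minor form. Per kb of mature transcript, Rpl10l made up 6.23%, 5.15% and 3.17% of the sum of Rpl10 and Rpl10l in TPS lines and 0.818%, 0.27% and 0.526% in EPS lines. Rpl39l made up 7.17%, 4.44% and 1.86% of the sum of Rpl39 and Rpl39l in TPS lines and 0.128%, 0.0271% and 0.167% in EPS lines. The groups did not overlap in either share. The summed level of Rpl10 and Rpl10l was 1449 CPM per kb in TPS and 2181 CPM per kb in EPS lines, and that of Rpl39 and Rpl39l was 540.7 and 919.3 CPM per kb, so the sums were lower in TPS lines despite the paralogs. Rpl10 has 9 near-identical gene copies, and Rpl10l is not among them at 95% identity. Rpl39l has 0 such copies.

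**Figure D3:**
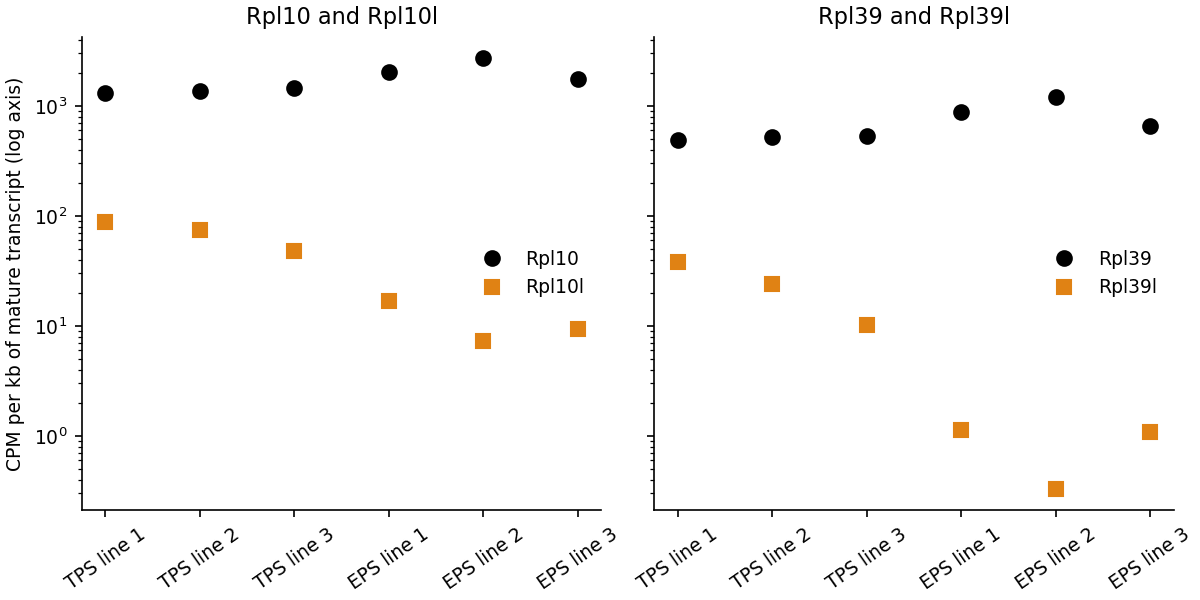
Level of Rpl10 with Rpl10l (left) and Rpl39 with Rpl39l (right) in each line, in CPM per kb of mature transcript on a log axis. The X-linked genes (circles) are lower in the TPS lines and the paralogs (squares) higher, yet Rpl10l stays at or under 6.23% and Rpl39l at or under 7.17% of the sum of each pair.

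Rpl22l1, Rps27l, Rpl7l1, Rps4l, Rpl3l and Rpl36al did not pass the threshold. Rpl22l1 had 22.4, 21.5 and 24.9 CPM in TPS lines and 30.3, 23.1 and 22.7 CPM in EPS lines (log2 fold change -0.15, adjusted p = 0.589), and its share of the sum with Rpl22, per kb, was 18.6% ± 1.89 (SD, n = 3) in TPS and 13.7% ± 0.276 (SD, n = 3) in EPS lines. Rps27l, a p53 target, had 209.4, 206.2 and 212.1 CPM in TPS lines and 276.4, 176.4 and 200.7 CPM in EPS lines (log2 fold change -0.06, adjusted p = 0.843), and its share of the sum with Rps27 was 27.6% ± 2.88 (SD, n = 3) and 17.8% ± 1.74 (SD, n = 3). In both pairs the paralog's share was higher in each TPS line than in each EPS line while the paralog itself overlapped between groups. Beside a parent gene that is lower in TPS lines, a paralog at a similar level takes a larger share. Rpl7l1 had 252.2 to 285.3 CPM in TPS and 255.2 to 348.9 CPM in EPS lines (log2 fold change -0.22, adjusted p = 0.331), beside Rpl7 with a log2 fold change of -0.39 (adjusted p = 0.119). Rps4l, an expressed copy of Rps4x annotated as a processed pseudogene and so not a member, had 381.5 to 457.4 CPM in TPS and 358.2 to 458.9 CPM in EPS lines (log2 fold change -0.01, adjusted p = 0.96). Its share of the sum with Rps4x was also higher in each TPS line (25.1% to 30.6%) than in each EPS line (17.7% to 24.1%). That of Rpl7l1 with Rpl7 overlapped between the groups (7.82% to 9.39% in TPS and 7.23% to 8.51% in EPS lines). Rpl3l and Rpl36al, outside the count limit, were at or below 1.61 CPM in every line, with log2 fold changes of 0.64 (adjusted p = 0.344) and 0.22 (adjusted p = 0.731), beside Rpl3 at -0.40 (adjusted p = 0.106).

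Rps27rt, an intronless copy of Rps27 on chromosome 9, passed as lower with 4.65, 3.86 and 4.67 CPM in TPS lines and 8.98, 6.33 and 10.1 CPM in EPS lines (log2 fold change -0.95, SE 0.276, adjusted p = 0.0455). It met the count limit only through the EPS libraries, where it is higher, so this call is only a description. Over 91.2% of its length the Rps27rt transcript matches Rps27 at 100% identity, and its level was 1.05% of the pair's sum per kb in TPS and 1.12% in EPS lines. With reads this alike, the counts of Rps27rt and Rps27 are uncertain where the authors' counting could split them. Of the 82 members, 53 have at least 1 annotated copy at 95% identity over at least 50% of the transcript, up to 37 copies for Rpl7a. Adding the counts of 385 such copies to their 52 members, an alternative chosen after seeing the data, gave 14 members called lower (against 7.56% of all genes tested in that fit), 2 called higher and a median log2 fold change of -0.50.

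The window around the start site shows what these genes share and where the paralogs differ. RefSeq promoters (GRCm38.p6) were at hand for 62 of the 82 members by symbol. The windows below are the 50 bases on either side of the annotated start, on the gene's strand, and the capitals mark the longest unbroken run of C or T, or each of them where several are equally long. They are shown for the X-linked genes with their paralogs, for Rps27 with its copy, and for 4 further members that passed as lower, of which Rpl14 and Rpl4 were chosen for their long runs and Rpl23 and Rps4x for their short ones. Their positions are chrX:74270766-74270865 (plus strand) for Rpl10, chr12:66284352-66284451 (minus) for Rpl10l, chrX:37085173-37085272 (minus) for Rpl39, chr16:10170178-10170277 (plus) for Rpl39l, chr3:90213599-90213698 (minus) for Rps27, chr9:114982690-114982789 (minus) for Rps27rt, chr9:120571467-120571566 (plus) for Rpl14, chr9:64173337-64173436 (plus) for Rpl4, chr11:97782390-97782489 (minus) for Rpl23 and chrX:102189342-102189441 (minus) for Rps4x.
Rpl10: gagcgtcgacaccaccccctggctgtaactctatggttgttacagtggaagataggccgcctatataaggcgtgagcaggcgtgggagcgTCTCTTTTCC
Rpl10l: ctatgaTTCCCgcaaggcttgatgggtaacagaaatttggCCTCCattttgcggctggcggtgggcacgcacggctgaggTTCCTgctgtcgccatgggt
Rpl39: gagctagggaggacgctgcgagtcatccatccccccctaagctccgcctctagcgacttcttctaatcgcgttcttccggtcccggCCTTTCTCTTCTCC
Rpl39l: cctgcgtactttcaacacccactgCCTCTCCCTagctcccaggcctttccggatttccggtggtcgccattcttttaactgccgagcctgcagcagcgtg
Rps27: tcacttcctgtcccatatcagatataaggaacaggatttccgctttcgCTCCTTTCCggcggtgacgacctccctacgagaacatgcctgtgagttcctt
Rps27rt: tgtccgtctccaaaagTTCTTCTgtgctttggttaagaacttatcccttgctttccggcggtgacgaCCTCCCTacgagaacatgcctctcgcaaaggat
Rpl14: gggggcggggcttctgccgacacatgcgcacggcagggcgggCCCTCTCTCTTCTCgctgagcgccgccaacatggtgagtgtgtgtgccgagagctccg
Rpl4: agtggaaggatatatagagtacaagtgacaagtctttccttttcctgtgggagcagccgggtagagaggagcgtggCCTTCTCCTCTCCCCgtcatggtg
Rpl23: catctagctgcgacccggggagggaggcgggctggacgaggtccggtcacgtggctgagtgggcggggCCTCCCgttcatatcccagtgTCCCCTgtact
Rps4x: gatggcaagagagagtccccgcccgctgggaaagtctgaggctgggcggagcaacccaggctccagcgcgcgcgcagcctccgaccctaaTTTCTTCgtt

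The run was 10 bases in Rpl10 and 14 in Rpl39, both running up to the window's last bases, 9 in Rps27, 14 in Rpl14, 15 in Rpl4, 6 in Rpl23 (at 2 places) and 7 in Rps4x. In Rpl10l the longest runs had 5 bases, 2 before and 1 after the start site. The run of 9 bases in Rpl39l lay before the start site, and Rps27rt had a run of 7 bases on either side of it. The Rps27 and Rps27rt windows share an unbroken stretch of 38 bases and differ on both sides of it. A run of at least 8 pyrimidines on the gene's strand was present within 50 bases of the start in 51 of 62 members (82.3%) and in 39.3% of the 27025 genes in the table. On the other strand it was present in 22.6% of members and 41.1% of all genes. Within the 300 bases from 250 before to 50 after the start, searched on both strands, the ETS core CCGGAAG was in 40.3% of members and 9.93% of all genes, the SP1 core GGGCGG in 62.9% and 38.2%, the YY1 core AAGATGG in 16.1% and 7.28%, and the E-box CACGTG in 9.68% and 8.09%. These are matches of letters, not sites shown to be bound and not runs shown to be TOP motifs. A gene counted if any of its listed promoters had the match, and a run counted anywhere in the window. The 27025 genes were not limited to expressed ones.

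The lowest members per length were Rps10 (7.73 CPM per kb), Rpl39l (12.5), Rps27rt (17.2), Rpl13a (28.4) and Rps19bp1 (40.3). Rps19bp1 carries the symbol prefix but encodes a protein that binds Rps19 and is no ribosomal protein, and its log2 fold change was -0.48 (adjusted p = 0.108). Rps10 and Rpl13a belong to a set of 6 members whose exons overlap another annotated gene over at least 50% of their length, together with Rpl23a, Rpl30, Rpl35 and Rps25. Rps10 had 8.84, 4.85 and 8.45 CPM in TPS lines and 6.69, 6.86 and 5.46 CPM in EPS lines, with 63.6% of its exons overlapped. Rpl13a had 32.3, 25.6 and 31.3 CPM in TPS lines and 39.7, 24.3 and 25.2 CPM in EPS lines, with 59.3% overlapped. For both genes the lines overlapped between the groups and the test was not passed (log2 fold changes 0.22 and 0.00 for Rps10 and Rpl13a, adjusted p-values 0.641 and 0.999). Of the 6, 0 passed the threshold in edgeR and in limma-voom, 1 passed in DESeq2, 3 had an unadjusted p under 0.05 in edgeR, and the median log2 fold change was -0.39. The 1 and the 3 were in the lower direction. In that direction 7.34% of all tested genes passed in edgeR and 7.13% in limma-voom, and 15.2% had an unadjusted p under 0.05 in edgeR. In DESeq2 5.08% of the 32608 genes with a count passed. How the authors' counting treated reads in overlapping genes is not given in the sources used here, so the level of these 6 members is uncertain. Near-identical copies add to this for Rps10 and Rpl23a. The 3 copies of Rps10 had a mean of 961.0 counts, against 119.8 for Rps10 itself. The 20 copies of Rpl23a had 2933.7, against 1088.2. With copies added, the log2 fold change of Rps10 was -0.48 and did not pass. Rpl24, outside the count limit with 0.181 to 0.797 CPM, has 71.5% of its exons overlapped.

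The rule on symbols leaves out some genes that encode ribosomal proteins, as well as Rack1. Rack1, a scaffold protein on the head of the small subunit, had 1610, 1682 and 1817 CPM in TPS lines and 3653, 2506 and 2245 CPM in EPS lines and passed as lower (log2 fold change -0.72, SE 0.198, adjusted p = 0.039). Rpsa and Fau had log2 fold changes of -0.62 (adjusted p = 0.0817) and -0.55 (adjusted p = 0.0673), with every TPS line below every EPS line. Of 9 elongation factors and their regulators, 2 passed as lower: Eef1g (log2 fold change -0.54, adjusted p = 0.038), and Eef2k, the kinase that inhibits eEF2, with 21.3, 25.6 and 20.0 CPM in TPS lines and 73.5, 55.7 and 67.1 CPM in EPS lines (log2 fold change -1.55, adjusted p = 0.00239). Of 36 initiation factors 1 passed as lower, Eif3f (log2 fold change -0.51, adjusted p = 0.0407), and the median was -0.22. A list of 20 other TOP mRNAs, which shares Rack1, Eef1g and Eif3f with the lists above, had these 3 called lower and a median of -0.38. That count was 5 without EPS line 2 and 0 without any one of the TPS lines, when 7 genes of the list had an unadjusted p under 0.05 in edgeR's test, the only tool run on those subsets. Rack1 did not pass without any one of the TPS lines or without EPS line 2, Eef1g did not pass without any one of the TPS lines, and Eif3f passed only without EPS line 3, whereas Eef2k passed whichever line was left out. No gene of these lists passed as higher. Of all tested genes, 7.34% passed as lower and 14.4% as higher, and the share lower was between 2.74% and 5.76% when a line was left out.

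The snoRNA host genes, several of which also begin with a TOP motif, had the lowest median of the lists examined apart from the pluripotency markers. Of the 13 tested, 12 are annotated as noncoding and Snhg11 as protein coding. Of these 13, 6 passed as lower, against 7.34% of all tested genes, the median log2 fold change was -0.71 and none passed as higher, against 14.4%. Snhg11 had a log2 fold change of 0.75 (adjusted p = 0.187). The noncoding Snhg18 was at 0.82 (adjusted p = 0.0661), with every TPS line above every EPS line. Gas5 had 66.6, 55.6 and 55.5 CPM in TPS lines and 177.5, 182.0 and 103.4 CPM in EPS lines (log2 fold change -1.38, SE 0.227, adjusted p = 0.0074). Snhg20 had 3.47, 3.71 and 3.78 CPM in TPS lines and 8.1, 10.6 and 6.57 CPM in EPS lines (log2 fold change -1.20, SE 0.275, adjusted p = 0.0208). For both genes the lowest EPS line was above the highest TPS line. The count of 6 was between 1 and 7 when a line was left out, with 1 call left without TPS line 3, 2 without TPS line 1, TPS line 2 or EPS line 2, and 3 without EPS line 1. Gas5 passed whichever line was left out, whereas Snhg20 passed in 2 of these 6 fits (highest edgeR adjusted p = 0.0633).

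Ribosome assembly genes had medians closer to 0. Of 95 rRNA processing and assembly factors, 15 passed as lower (15.8%) and none as higher, and the list had a median of -0.25 on the log2 scale. Of all tested genes 7.34% passed as lower and 14.4% as higher, and of the protein-coding genes outside the family with at least 100 CPM 15.2% passed as lower, so the list's share is close to that of abundant genes. The largest changes were those of Dkc1, the pseudouridine synthase of box H/ACA snoRNPs, with 176.2, 181.9 and 196.9 CPM in TPS lines and 352.4, 459.7 and 342.5 CPM in EPS lines (log2 fold change -1.06, SE 0.152, adjusted p = 0.00486), and of Utp14a, a small-subunit processome protein (log2 fold change -0.87, SE 0.201, adjusted p = 0.0218). The count of 15 fell to between 3 and 11 when a line was left out, with 3 calls without TPS line 1, 4 without TPS line 2 or EPS line 3, and 5 without TPS line 3 or EPS line 1, when between 2.74% and 5.76% of all tested genes passed as lower, whereas Dkc1 passed each time. Of 15 genes of the RNA polymerase I machinery, Rrn3 (log2 fold change -0.58, adjusted p = 0.0497) and Ttf1 (log2 fold change -0.54, adjusted p = 0.0358) passed as lower, and the median was -0.13. Neither gene passed when any single line was left out. The proteins of the mitochondrial ribosome, which are made from separate genes, had a median of -0.15 over 77 tested genes. Of these, Mrpl24 (log2 fold change -0.80, adjusted p = 0.0421) and Mrpl45 (log2 fold change -0.46, adjusted p = 0.0389) passed as lower, and none passed as higher. Mrpl24 did not pass without any one of the TPS lines, and Mrpl45 passed only without EPS line 3.

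**Figure D4:**
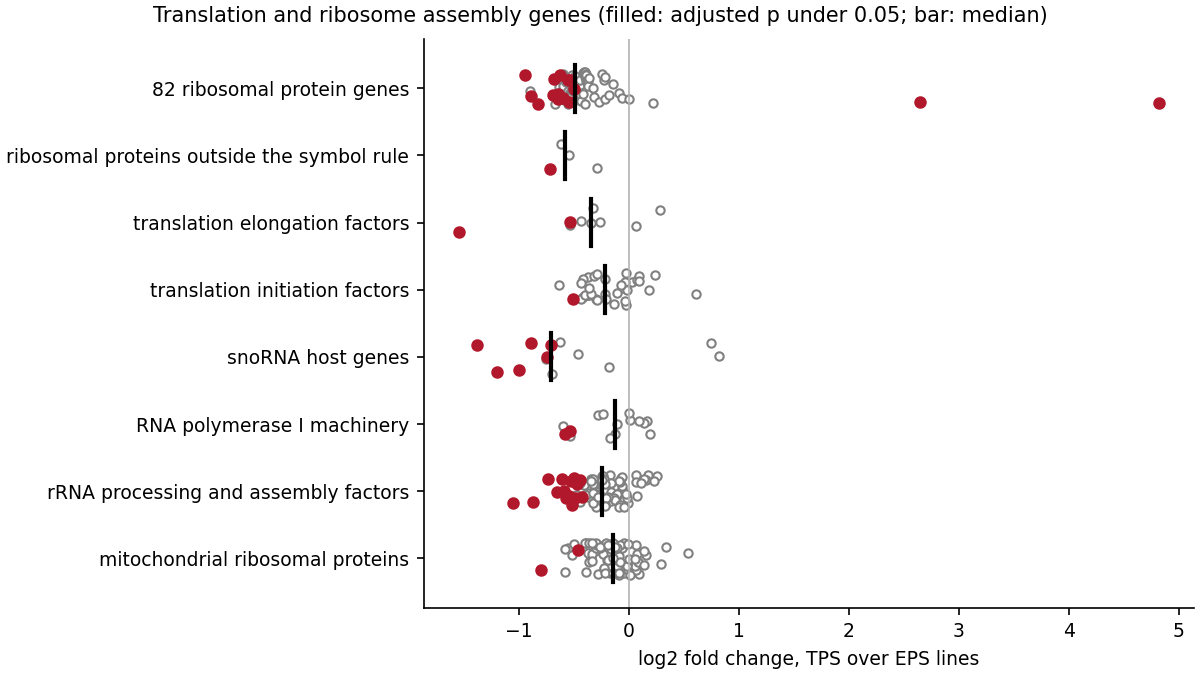
Log2 fold change of TPS over EPS lines for the 82 members and for 7 related gene lists; each point is a tested gene, filled where the edgeR adjusted p is under 0.05, and bars mark medians. The bar of the members is at -0.49, that of the snoRNA host genes at -0.71, and that of the mitochondrial ribosomal proteins at -0.15.

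Among 28 growth regulators of ribosomal protein synthesis, 3 passed as higher and 3 as lower, against 14.4% and 7.34% of all tested genes. Myc, which drives ribosome production, had 15.6, 19.2 and 48.1 CPM in TPS lines and 7.28, 5.71 and 9.11 CPM in EPS lines (log2 fold change 1.91, SE 0.442, adjusted p = 0.022), and Mycl was also higher (log2 fold change 0.85, adjusted p = 0.0371). Mycn had 80.3, 71.8 and 134.7 CPM in TPS lines and 175.0, 195.9 and 149.7 CPM in EPS lines and was lower (log2 fold change -0.86, SE 0.248, adjusted p = 0.0442). Rps6ka2, an S6 kinase of the RSK family, was lower (log2 fold change -1.75, SE 0.198, adjusted p = 0.00251). The call of Rps6ka2 held whichever line was left out, that of Myc was lost without EPS line 1 or EPS line 2, Mycl passed only without TPS line 2, and Mycn only without TPS line 3. The mRNAs of Mtor and of Larp1, the repressor of TOP translation, had log2 fold changes of -0.17 (adjusted p = 0.407) and -0.19 (adjusted p = 0.445), and their lines overlapped between the groups.

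Transcript length and scaling were examined beside the family's shift. Members up to 1200 bases (65 genes) stood at a median log2 fold change of -0.49 and longer members (17 genes) at -0.53. Protein-coding genes outside the family with up to 1200 bases and at least 100 CPM (151 genes) stood at a median of -0.25, with 11.9% called lower. These classes use the length of an annotated transcript, which was 5179 bases for Rps15a, 3706 for Rps20 and 2989 for Rpl18. Whether that transcript was the expressed one was not tested. Scaling by library size alone moved the median of all tested genes to 0.14 and that of the members to -0.34. Under that scaling 1 member passed as lower, against 4.26% of all tested genes. As higher, 2 members passed, against 2987 of all 17468 tested genes. Of all called genes 80% were higher, against 66.2% under TMM. Leaving the members out of the TMM calculation left 13 of them called lower, against 7.41% of all tested genes, and their median at -0.50.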

How the data were processed

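Polyadenylated RNA of 3 TPS and 3 EPS lines was sequenced as 2 technical replicates each (12 libraries). The authors deposited raw counts of reads per gene for each library, without normalization. The submitters' processing notes name fastp 0.19.7, STAR 2.7.3a and build mm10. The counting tool, annotation, use of strand and handling of multi-mapping reads are not given in the sources used here, so reads of near-identical, overlapping or antisense genes could have been split or shared.

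Symbols and coordinates came from GENCODE M21 (GRCm38) after the version of the identifier was removed. Technical replicates were summed. Pairs differed by more than sampling noise (chi-square per degree of freedom 2.59 to 22.6), so no library was counted as a repeat. TPS and EPS lines were compared by edgeR 4.0.16 (R 4.3.3) with its quasi-likelihood test, TMM scaling and filterByExpr (a minimum of 10 counts and a total of 15), with Benjamini-Hochberg adjustment over 17468 genes and a threshold of 0.05. SE is the log2 fold change divided by the square root of F. With 3 lines per group a permutation of lines cannot give p under 0.1. Mature length is that of the principal coding transcript, the longest where several ranked equally. Levels per kb, the length classes and the rho with length depend on this choice. Copies were found with blastn 2.17.0.

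Named genes were all called members, the 5 highest and 5 lowest per kb, those nearest the count limit, paralog pairs, stalk genes, Rps6, Rpl5, Rpl11 and Rps19, and from each related list the 2 most changed called genes in each direction with 8 set names. Rpl29, Rpl7a, Eif3f, Snhg11, Snhg18 and the members with overlapping exons were named after their values were seen. The values of some named genes are not reported here. The members and lists were chosen with earlier results of these data known. Alternatives were DESeq2 1.42.0, limma-voom (limma 3.58.1), other scalings, filters, thresholds, memberships and replicate structures.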

Additional observations from a re-analysis of the deposited data

How the results depend on the processing

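The median log2 fold change of the members stayed between -0.60 and -0.33 in every alternative run, and Rpl10l and Rpl39l were called higher in every alternative fit. Rpl39l met the count limit only through the TPS libraries, where it is higher, so its calls are only a description. By membership alone, 0 members were called higher with a mean of at least 1000 counts, which leaves out Rpl10l and Rpl39l, and 1 among members without a near-identical copy. The count of members called lower, 13, depended on the setting. It was 22 with DESeq2 (5.08% of the 32608 genes with a count passed as lower) and 47 with no filter on low counts (4.71% of 32608). It was 68 with the 12 libraries as separate samples (23.3% of all genes tested in that fit), 7 with upper quartile factors (5.81%), 7 with technical replicate 1 alone (6.6%) and 1 with library size alone (4.26%). It was 4 among members without a near-identical copy (29 genes tested instead of 82). At an edgeR adjusted p under 0.01 it was 0 (4 with DESeq2 and 0 with limma-voom at that threshold, and 60 at an unadjusted p under 0.05). Leaving out 1 line gave between 0 and 17 members called lower, a median between -0.60 and -0.33 and a difference in share between -2.37 and -1.0 percentage points. The cause of these differences was not tested, except that counting technical replicates as samples enlarges the number of samples. With the line number as a replicate block 6 members passed as lower (4.13% of all tested genes). Lines of the same number did not deviate together (correlations across genes of 0.024, -0.116 and 0.0423). No TPS line correlated best with the EPS line of its own number. With 3 lines per group, these values cannot show whether lines of the same number are related, and the labels do not say. Calls of lower genes in the related lists moved too. The 3 other TOP mRNAs became 0 in edgeR with library size alone, upper quartile factors, technical replicate 1 alone and the replicate block (6, 9, 10 and 11 at an unadjusted p under 0.05), 4 with DESeq2 and 5 with limma-voom, and the 15 rRNA processing and assembly factors became 4, 6, 11 and 4 in the same edgeR fits. None of the 15 called members changed direction in any alternative, and neither did the called genes of the related lists that are named. For Rpl39l and Rps27rt among the 15, the direction is tied to how they were selected. Of the named genes that were not called, 6 changed direction, and none passed the threshold where it did. Rpl13a (0.00) was at -0.01 with DESeq2, -0.00 with RLE factors and with normalization without the members, -0.03 with no filter, and -0.06 with copies added and with technical replicate 1 alone, and between -0.14 and 0.24 with 1 line left out. Rps4l (-0.01) was at 0.14 with library size alone, 0.04 with upper quartile factors and with technical replicate 1 alone, 0.02 with at least 1 CPM in 3 lines, 0.01 with the 12 libraries, and between -0.13 and 0.05 with 1 line left out. Rps27l (-0.06) was at 0.10 with library size alone, 0.00 with technical replicate 1 alone, and between -0.21 and 0.12 with 1 line left out. Rpl22l1 (-0.15) was at 0.01 with library size alone, Rps10 (0.22) at -0.48 with copies added, and Rpl36al (0.22) between -0.04 and 0.50 with 1 line left out. Depth limits Rpl39l, which had 3 counts in its lowest library.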
